A study of Mus musculus with 3 samples.

Results

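Transcripts of 10 C-type lectin receptor genes of myeloid cells were measured in 3 populations of the mouse colon. The genes, chosen by symbol, were Clec4e, Clec4d, Clec4n, Clec7a, Clec4a1, Clec4a2, Clec4a3, Clec10a, Clec5a and Mrc1, and all 10 were found among the 24346 gene symbols of the tables. All 10 passed the filter on low values, an FPKM (mapped fragments per kilobase, relative to all mapped fragments) of at least 1 in any library. The populations were Gr-1+ CD11b+ cells, labelled as neutrophils and monocytes, CD64+ macrophages, and CD64- dendritic cells (DC), each sorted from the colon of healthy, untreated BALB/c mice. Each population was 1 library, so no difference has a replicate check and no test is given. The age and number of the mice are not given in the sources used here.

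C-type lectin receptors are membrane proteins of phagocytes and dendritic cells whose extracellular domain binds glycans, glycolipids or other ligands of fungi, bacteria and damaged host cells. Mincle (Clec4e), MCL (Clec4d) and Dectin-2 (Clec4n) carry no signalling motif of their own and use the Fc receptor gamma chain, whereas the beta-glucan receptor Dectin-1 (Clec7a) has a tyrosine motif in its tail. Both routes recruit the kinase Syk and, through CARD9, BCL10 and MALT1, activate NF-kB. DCIR (Clec4a2) instead carries an inhibitory tyrosine motif that recruits phosphatases. The mannose receptor (Mrc1) and the galactose-type lectin MGL1 (Clec10a) are endocytic receptors often used to mark tissue macrophages and some dendritic cells.

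Of the 10 genes, 8 lie on chromosome 6, 1 on chromosome 11 (Clec10a, positions 70156197 to 70170834, plus strand) and 1 on chromosome 2 (Mrc1, 14229392 to 14332057, plus strand) in GENCODE M21 on GRCm38, the build also called mm10. A stretch of 368 kb on chromosome 6, from 122921848 to 123289870, holds 6 of them, in the order Clec4a1, Clec4a3, Clec4a2, Clec4n, Clec4d and Clec4e, with Clec4a4, Clec4b1 and Clec4b2 in between. Clec4d and Clec4e are neighbours there, on opposite strands, with 6.52 kb between their 3' ends. Clec5a (40574894 to 40585821, minus strand) and Clec7a (129461591 to 129472779, minus strand) lie elsewhere on that chromosome. The annotation classes Clec7a as a polymorphic pseudogene and the other 9 as protein-coding.

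Upstream sequence is shown for 3 genes of the chromosome 6 stretch, chosen after their values were seen: the neighbours Clec4e and Clec4d, which were highest in the Gr-1+ CD11b+ population, and Clec4a1, which was highest in macrophages. Each line gives the 250 bases before the RefSeq start on the strand of the gene (GRCm38.p6), at chr6:123289872-123290121 on the minus strand for Clec4e, chr6:123261857-123262106 on the plus strand for Clec4d and chr6:122921598-122921847 on the plus strand for Clec4a1. Capitals mark matches, on either strand, to GAGGAA, which is a core of PU.1 sites, TTGCNNAA, a C/EBP site, GGNNTTTCC, part of an NF-kB site, and TATAAA, a core promoter element.
Clec4e: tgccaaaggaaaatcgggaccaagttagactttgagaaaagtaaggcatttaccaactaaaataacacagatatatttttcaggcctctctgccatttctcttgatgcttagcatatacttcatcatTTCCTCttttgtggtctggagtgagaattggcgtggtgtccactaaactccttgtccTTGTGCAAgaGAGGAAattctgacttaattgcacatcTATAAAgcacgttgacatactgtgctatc
Clec4d: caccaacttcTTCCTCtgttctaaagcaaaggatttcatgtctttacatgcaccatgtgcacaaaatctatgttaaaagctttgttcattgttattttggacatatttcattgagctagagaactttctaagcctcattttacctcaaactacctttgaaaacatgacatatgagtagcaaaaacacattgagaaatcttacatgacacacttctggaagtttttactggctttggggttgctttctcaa
Clec4a1: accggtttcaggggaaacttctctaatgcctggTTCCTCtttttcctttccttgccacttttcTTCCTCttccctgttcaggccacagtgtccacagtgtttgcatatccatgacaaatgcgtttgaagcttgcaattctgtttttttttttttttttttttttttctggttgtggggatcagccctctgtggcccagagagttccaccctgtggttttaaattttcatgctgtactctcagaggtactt
RefSeq windows were found for 8 of the 10 genes, 10 windows in all, and GAGGAA occurred in 8 of these windows, belonging to 7 genes, against 23.3% of 32851 windows of the same length over all genes. Clec4a2 was the gene without it. The windows of Clec7a overlap and hold the same site, and those of Clec4a3 overlap too, so the windows are not all separate. The 23.3% is a share of windows and not of genes. TTGCNNAA occurred in 1 window, that of Clec4e, against 9.56% of all windows. TATAAA occurred in 3 windows, those of Clec4e, Clec4a2 and Clec5a, against 12.4%, and in Clec4e it began 29 bases before the start. GGNNTTTCC occurred in 1 window, that of Mrc1, against 4.93% of all windows. No window held TGANTCA, an AP-1 site, which was in 6.75% of all windows. The longest run of bases common to 2 different genes was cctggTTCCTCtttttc, 17 bases, at -222 of Clec4a1 and -55 of Clec4a3. These letter matches are descriptions of the sequence and not binding sites.

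Facts of the libraries bear on every value. Over 1445 olfactory and vomeronasal receptor genes, which these cells should not use, the 95th percentile was 9.67 FPKM in the Gr-1+ CD11b+ population, 3.23 in macrophages and 0.610 in DC. This is called the silent-gene level, and lower values are not read as expression. Steps in the FPKM of genes with 1 transcript gave depths of 1, 2.72 and 3.61 in the same order, relative to the Gr-1+ CD11b+ library. Markers followed the labels in part. Of 15 neutrophil markers in the tables, 13 reached 1 FPKM in any library, and all 13 were higher in the Gr-1+ CD11b+ population than in both other populations by the size limit, a difference of at least 2 in log2(FPKM + 1) where the higher library reaches 10 FPKM. All differences below are on that scale, which understates those of low genes. The neutrophil markers summed to 181530 FPKM against 4831 in macrophages and 1820 in DC, with Camp listed at 0 in macrophages and DC and Elane at 0 in all 3. Of the 181530 FPKM, S100a8 gave 98580 and S100a9 gave 54906. Monocyte markers, 10 genes, summed to 1247, 3906 and 1663 FPKM in the Gr-1+ CD11b+ population, macrophages and DC. The sum of 12 macrophage markers was 2872, 29487 and 3506 FPKM in the Gr-1+ CD11b+ population, macrophages and DC. Apoe alone gave 19321 of the 29487 FPKM. The DC library also held 23261 FPKM of 10 B and plasma cell markers, against 449 in the Gr-1+ CD11b+ population and 1208 in macrophages, beside 1613 FPKM of 14 dendritic cell markers, against 379 and 615. Ccr7 alone gave 1004 of the 1613 FPKM. By the size limit 4 of the 14 were higher in DC than in macrophages and 1, Sirpa, was lower. The shares of all genes were 1.53% and 2.31%. In the order Gr-1+ CD11b+, macrophage and DC library, epithelial markers summed to 1185, 355 and 599 FPKM, stromal and endothelial markers to 115, 69.3 and 148, T and NK cell markers to 36.9, 78.1 and 89.3, and mast cell and eosinophil markers to 33.3, 26.5 and 131. Prg2 alone gave 108 of the 131 FPKM in DC, and Cd4 gave 48.9 of the 78.1 in macrophages. In the Gr-1+ CD11b+ library 0 of 9 T and NK cell markers exceeded the silent-gene level. There 1 of 8 mast cell and eosinophil markers, 3 of 9 stromal and endothelial markers and 7 of 8 epithelial markers did.

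The 10 receptor genes together held 2863 FPKM in the Gr-1+ CD11b+ population, 3278 in macrophages and 409 in DC, which was 0.331%, 0.375% and 0.0612% of each library's FPKM sum. The Gr-1+ CD11b+ population had the highest value for 3 of the 10 genes, Clec4e, Clec4d and Clec5a, and macrophages for the other 7. In bulk samples of this kind, fewer expressing cells and less RNA per cell cannot be told apart. All 10 genes lay above the silent-gene level in macrophages and DC, and 8 did in the Gr-1+ CD11b+ population, where Clec10a and Mrc1 lay below it. The shares of all genes that were highest in each library, or above its silent-gene level, were not computed, so these counts are descriptions only.

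**Figure D1:**
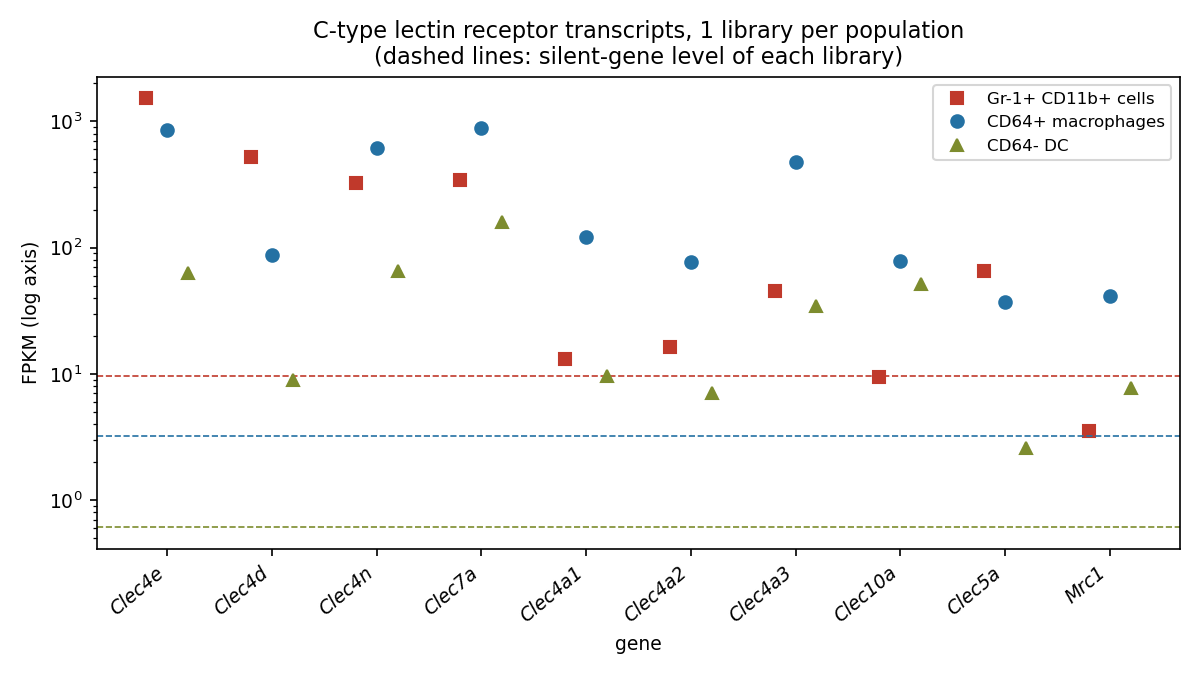
FPKM of each gene (log axis) in the Gr-1+ CD11b+ population (squares), CD64+ macrophages (circles) and CD64- DC (triangles), 1 library each, with dashed lines at the silent-gene levels of 9.67, 3.23 and 0.610 FPKM. The macrophage value is the highest for 7 genes, and Clec4e, Clec4d and Clec5a are highest in the Gr-1+ CD11b+ population.

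Among the receptors that signal through the Fc receptor gamma chain, Clec4e, which encodes the glycolipid receptor Mincle, was at 1523 FPKM in the Gr-1+ CD11b+ population, 851 in macrophages and 62.8 in DC. It ranked 58th, 151st and 1652nd among the 17329 genes that passed the filter. The Gr-1+ CD11b+ population and macrophages were thus near each other, with a difference of 0.84 that did not reach the size limit, and macrophages were 13.6-fold above DC. Clec4d, whose product MCL pairs with Mincle, had 521, 87.8 and 8.93 FPKM in the same order. It was 5.93-fold higher in the Gr-1+ CD11b+ population than in macrophages and 58.3-fold higher than in DC, and was the only member higher by the size limit in the Gr-1+ CD11b+ population than in macrophages. Clec4n, the gene of the mannan receptor Dectin-2, had the other order, at 323 FPKM in the Gr-1+ CD11b+ population, 616 in macrophages and 65.9 in DC.

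Because these genes sit side by side on chromosome 6, their ratios within a library, which no scaling between libraries can alter, were compared. Clec4d was at 0.342 of the Clec4e value in the Gr-1+ CD11b+ population, 0.103 in macrophages and 0.142 in DC. Clec4n was at 0.212, 0.723 and 1.05 of the Clec4e value in the same order. Per length, Dectin-2 transcripts were thus close to Mincle transcripts in macrophages and DC and well below them in the Gr-1+ CD11b+ population.

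Clec7a, the gene of Dectin-1, was at 343 FPKM in the Gr-1+ CD11b+ population, 890 in macrophages and 159 in DC. It was the member with the highest level in both macrophages and DC. Macrophages were 5.61-fold above DC, and the Gr-1+ CD11b+ population was 2.16-fold above DC, a difference of 1.11 that did not reach the size limit. The tables give 1 value per gene and do not separate the isoforms of Dectin-1. Clec5a, whose product signals through the adaptor DAP12 (Tyrobp), was at 65.3 FPKM in the Gr-1+ CD11b+ population, 36.8 in macrophages and 2.60 in DC. Its profile over the 3 libraries, centred on its own mean, was nearest to that of Clec4e among the members, at a distance of 0.29 on the log2 scale, although Clec4e was at far higher levels.

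The Clec4a genes were highest in macrophages. Clec4a3, a relative of DCIR, was at 45.3 FPKM in the Gr-1+ CD11b+ population, 479 in macrophages and 34.5 in DC. Clec4a1, another relative, had 13.2, 122 and 9.59 FPKM in the same order. Clec4a2, which encodes the inhibitory receptor DCIR, was at 16.3, 76.7 and 7.09 FPKM. In each case the Gr-1+ CD11b+ population and DC lay well below macrophages. The Gr-1+ CD11b+ population was 1.31-fold above DC for Clec4a3, 1.38-fold for Clec4a1 and 2.29-fold for Clec4a2. None of these differences reached the size limit. Clec4a1 and Clec4a2 were at only 1.36 and 1.68 times the silent-gene level of the Gr-1+ CD11b+ library. The centred profiles of Clec4a1 and Clec4a3 were 0.20 apart on the log2 scale. Of the Clec4a2 50-base words, 6.69% also occur in other genes, chiefly Clec4a4 and Clec4b1, so its value is the less certain of the 3, whereas Clec4a1 and Clec4a3 shared none.

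The endocytic receptors had the lowest levels in the Gr-1+ CD11b+ population. Clec10a was at 9.51 FPKM in the Gr-1+ CD11b+ population, 78.0 in macrophages and 51.2 in DC, and Mrc1 was at 3.55, 41.7 and 7.70. In the Gr-1+ CD11b+ population both fell short of the silent-gene level. Clec10a was the only member whose DC value came near the macrophage one, with a difference of 0.60, and the share of its 50-base words that also occur elsewhere was 9.02%, most of them in Mgl2. Mgl2, which encodes the closely related MGL2, was at 10.03 FPKM in the Gr-1+ CD11b+ population, 156 in macrophages and 40.2 in DC.

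The lowest values rested on few fragments. From the FPKM steps and the longest coding transcript, Mrc1, Clec4a1 and Clec10a corresponded to about 43, 46 and 50 fragments in the Gr-1+ CD11b+ population, with 95% Poisson intervals of 2.57 to 4.78, 9.68 to 17.6 and 7.06 to 12.5 FPKM. In DC, Clec5a and Clec4d corresponded to about 79 and 96 fragments, with intervals of 2.06 to 3.23 and 7.24 to 10.9 FPKM. The intervals cover counting error only, since amplified fragments are not independent molecules. The interval of Clec10a included the silent-gene level of 9.67 FPKM in that population, and that of Clec4a1 began just above it.

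Taken as shares of the summed FPKM of the 10 genes, the make-up of the receptors differed between the libraries. Clec4e alone held 53.2% in the Gr-1+ CD11b+ population, 25.97% in macrophages and 15.4% in DC, and Clec4d held 18.2%, 2.68% and 2.18%. Together they were 71.4%, 28.6% and 17.5% of the sum. Clec7a held 11.98%, 27.1% and 38.8%, so it led in macrophages by a narrow margin over Clec4e and in DC by a wide one. The 3 Clec4a genes were 2.61%, 20.7% and 12.5%, and Clec10a was 0.332%, 2.38% and 12.5%. A share within a library does not depend on how the libraries are scaled against each other.

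**Figure D2:**
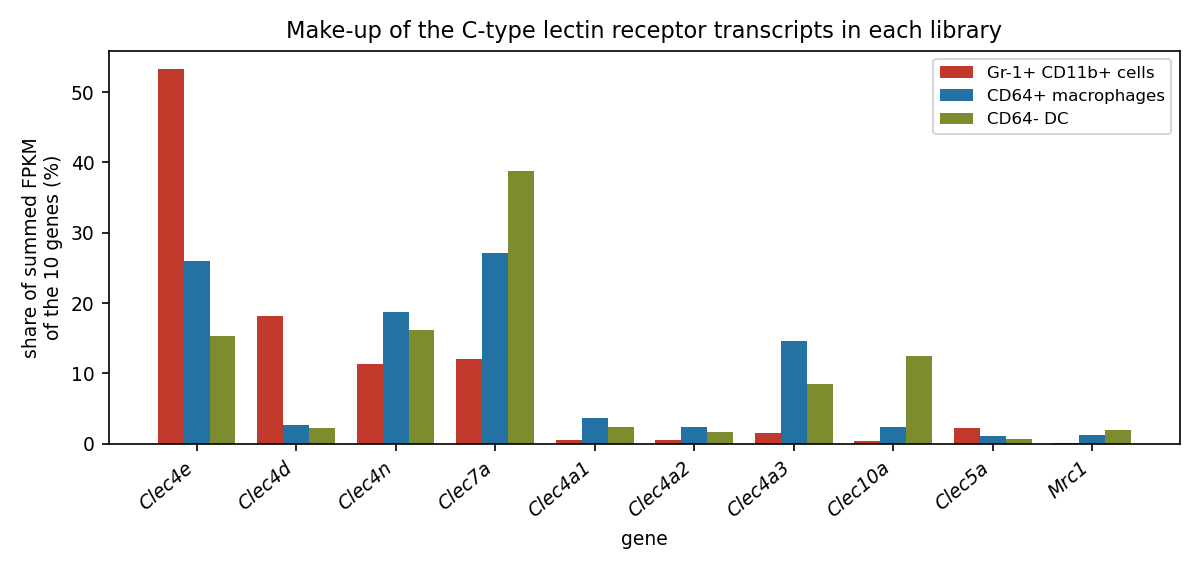
Share of the summed FPKM of the 10 genes held by each gene (bars, in percent) in the Gr-1+ CD11b+ population, CD64+ macrophages and CD64- DC, 1 library each. Clec4e and Clec4d make up 71.4% in the Gr-1+ CD11b+ population, while Clec7a is the largest share in macrophages (27.1%) and DC (38.8%).

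The CD64+ macrophages were set against CD64- DC first. By the size limit 9 of the 10 genes were higher in macrophages, where 2.31% of all 17329 genes were, and 0 were lower, where 1.53% were. The median difference of the members was 3.23, against 0.05 for all genes, and it ranged from 0.60 for Clec10a to 3.76 for Clec4a3. With equal FPKM sums in all libraries, Mrc1 was at 1.94 and no longer reached the limit. With a pseudocount of 10 it was at 1.55, and Clec5a at 1.89, so that 7 of the 10 genes passed. Macrophage markers moved the same way, with 11 of 12 higher in macrophages by the same limit and a median difference of 3.17.

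The Gr-1+ CD11b+ population was compared with DC in the same way. By the size limit 4 of the 10 genes, Clec4d, Clec4e, Clec5a and Clec4n, were higher in the Gr-1+ CD11b+ population, where 3.65% of all genes were, and 1, Clec10a, was lower, where 6.28% were. The differences were 5.72 for Clec4d, 4.58 for Clec4e, 4.20 for Clec5a and 2.28 for Clec4n, and -2.31 for Clec10a. With equal sums Clec4n was at 1.91, under the limit. With median-ratio or 75th percentile scaling Clec10a was at -1.58 or -1.59 and passed no longer, nor did it with a pseudocount of 10, at -1.65. The median over the members was 1.10, against 0.01 for all genes.

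Between the Gr-1+ CD11b+ population and macrophages, 1 of the 10 genes was higher in the Gr-1+ CD11b+ population by the size limit, where 1.41% of all genes were, and 5 were lower, where 3.41% were. Clec4d was the higher one, at 2.55. The lower ones were Clec4a3 at -3.37, Mrc1 at -3.23, Clec4a1 at -3.11, Clec10a at -2.91 and Clec4a2 at -2.17, and with median-ratio or 75th percentile scaling Clec4a2 was at -1.61 or -1.60 and passed no longer. With a pseudocount of 10 Clec4a2 was at -1.72 and Mrc1 at -1.93, both under the limit. The median over the members was -1.77, against 0.10 for all genes. These comparisons share libraries, so their results are not independent of each other.

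**Figure D3:**
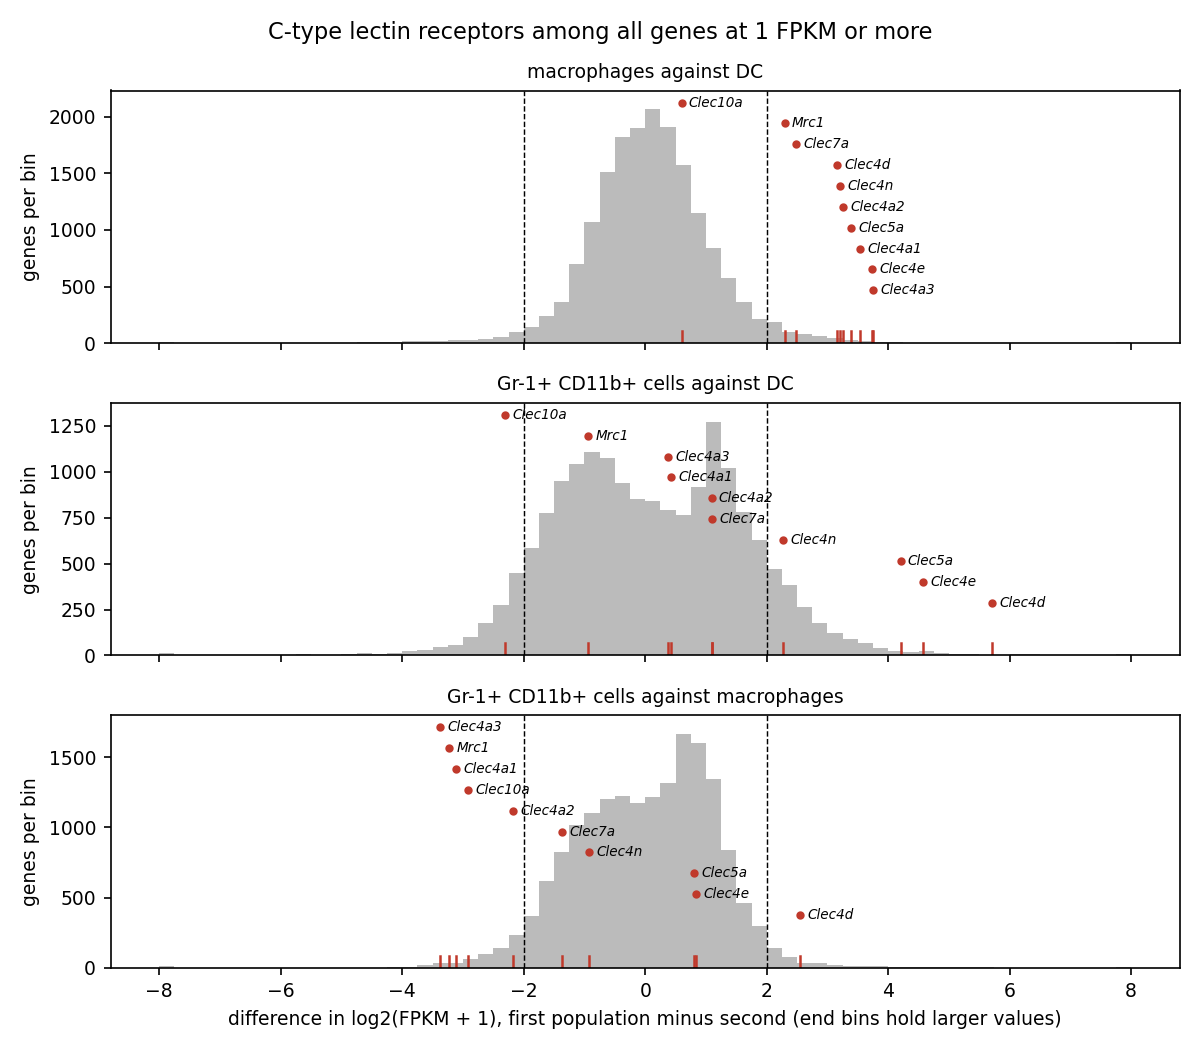
Differences in log2(FPKM + 1) of the 10 genes (dots and ticks) over the histogram of all 17329 genes, for macrophages minus DC, the Gr-1+ CD11b+ population minus DC, and the Gr-1+ CD11b+ population minus macrophages, with dashed lines at the limits of 2 and -2. In the first panel 9 of the 10 genes lie beyond the limit, and in the last panel 1 lies beyond it on the right and 5 on the left.

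Each value was also set against the macrophage library, where all 12 macrophage markers were above the silent-gene level. All 12 were above it in DC too, and 9 of 12 in the Gr-1+ CD11b+ population, where Mertk at 3.18 FPKM, Cx3cr1 at 4.23 and Cd163 at 4.33 lay below it. In DC the 12 macrophage markers were at 8.17% (Fcgr1, the gene of CD64) to 27.3% (Cd163) of their macrophage value, with a median of 10.8%. The C-type lectin receptors were at 7.05% (Clec5a) to 18.5% (Mrc1), apart from Clec10a at 65.6%, with a median of 9.71%. Thus 9 of the 10 genes lay within or below the range of the macrophage markers, and Clec10a lay above it. The lower end of that range was set by Fcgr1, the gene of the antigen used in the sort. The share of all genes within or below the range was not computed, so the count is a description only. The part of macrophage RNA in the DC values was not tested.

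In the Gr-1+ CD11b+ population the macrophage markers were at 7.64% (C1qc) to 30.8% (Cd68) of their macrophage value. Mrc1 at 8.51%, Clec4a3 at 9.47%, Clec4a1 at 10.8%, Clec10a at 12.2% and Clec4a2 at 21.2% lay within that range. The other 5 lay above it, Clec7a at 38.5%, Clec4n at 52.4%, Clec5a at 177%, Clec4e at 179% and Clec4d at 593%. Mrc1 and Clec10a were below the silent-gene level of this library, so their percentages are not read as expression. Clec4a1 and Clec4a2 were at 1.36 and 1.68 times that level. The share of all genes within or above the marker range was not computed. The 10 neutrophil markers with 10 FPKM or more in macrophages were at 1319% to 4576%, above every member. The part of macrophage RNA in the Gr-1+ CD11b+ values, and of neutrophil RNA in the macrophage values, was not tested.

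**Figure D4:**
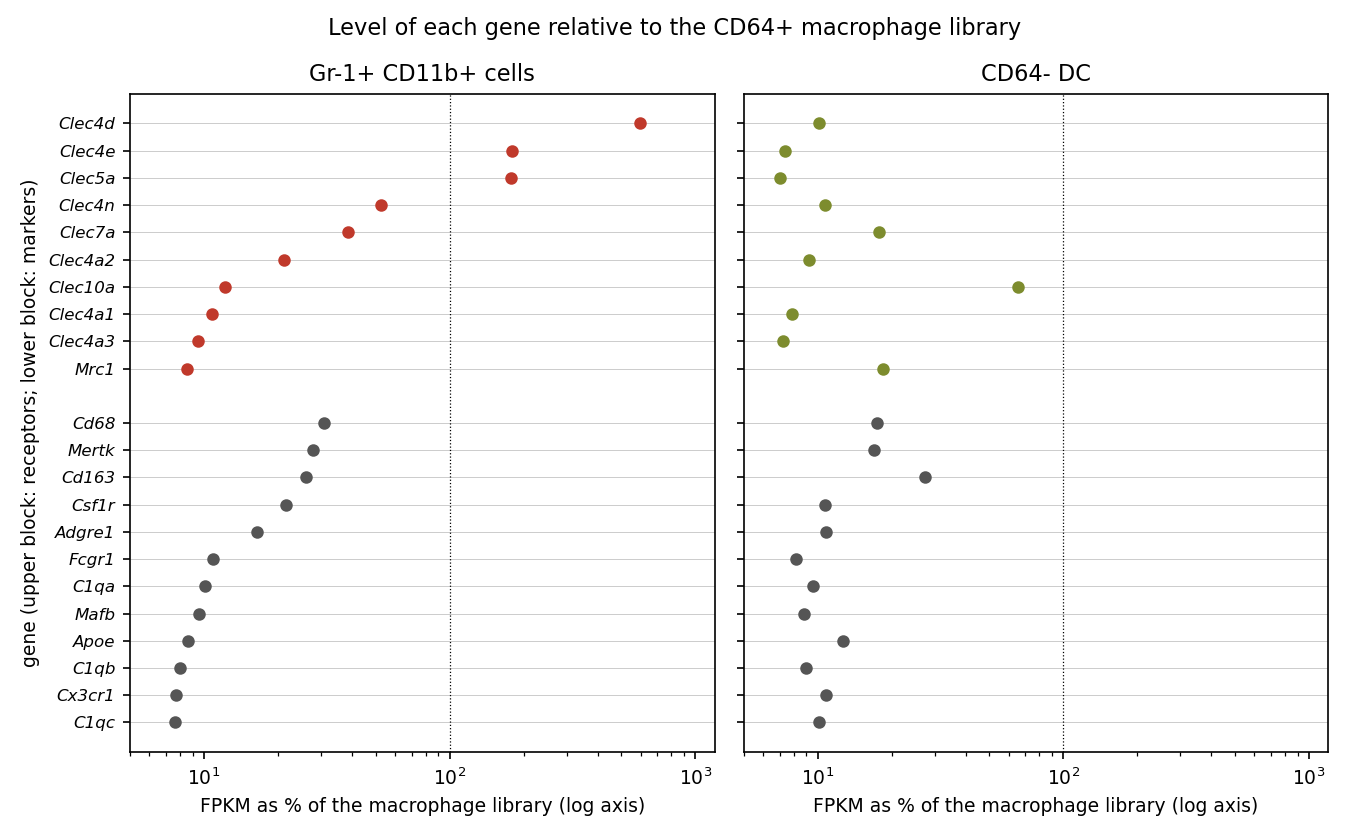
FPKM of each gene as a percentage of its value in the CD64+ macrophage library (log axis) in the Gr-1+ CD11b+ population (left) and CD64- DC (right), for the 10 C-type lectin receptors (upper block) and 12 macrophage markers (lower block), with a dotted line at equal values. In DC 9 of the 10 receptors lie within or below the range of the markers, with Clec10a at 65.6%, and in the Gr-1+ CD11b+ population 5 lie above it.

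The 3 genes between the members along the chromosome 6 stretch were mostly low. Clec4b1, the gene of the receptor DCAR, was at 4.15 FPKM in the Gr-1+ CD11b+ population, below the silent-gene level, 49.1 in macrophages and 14.8 in DC. Clec4a4, which encodes another inhibitory receptor of the DCIR group, was at 0.898, 4.15 and 2.89 FPKM, and Clec4b2 was at 1.43, 0.351 and 0.531. Of the 9 genes, Clec4d and Clec4e at one end were the only 2 that exceeded the silent-gene level of the Gr-1+ CD11b+ library and had their highest value there. Clec4n, the next gene inwards, had its highest value in macrophages. For the Gr-1+ CD11b+ population minus macrophages its difference was -0.93 and that of Clec4e 0.84, and neither reached the size limit.

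**Figure D5:**
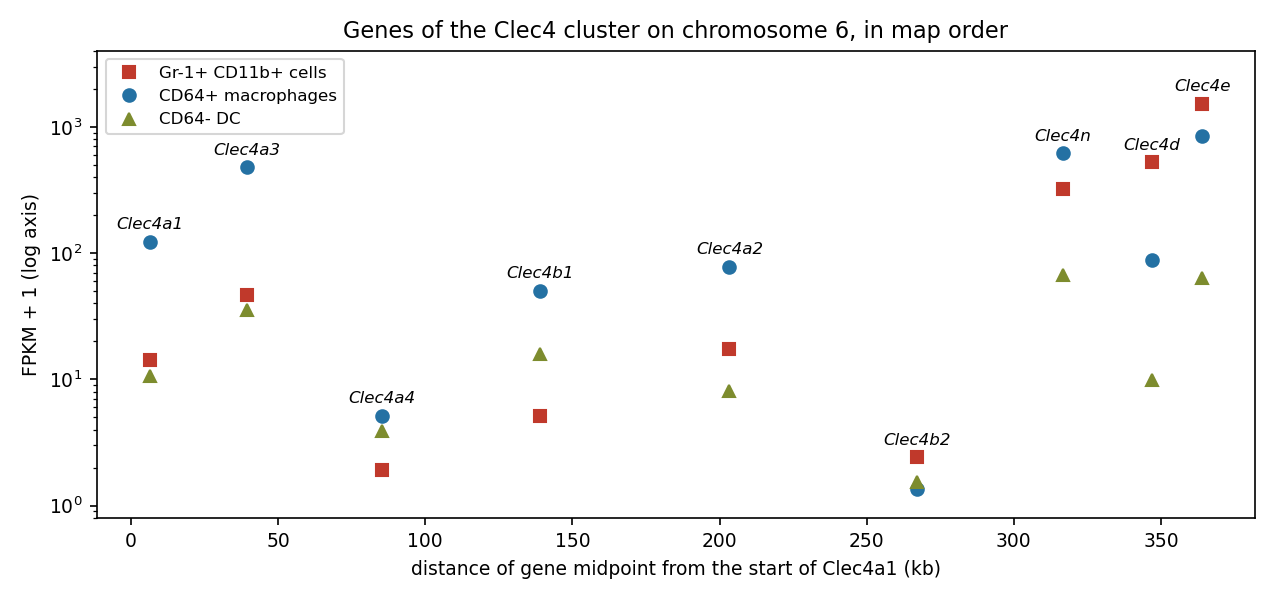
FPKM + 1 (log axis) of the 9 Clec4 genes of the 368 kb stretch on chromosome 6, plotted at their distance from the start of Clec4a1 in kb, in the Gr-1+ CD11b+ population (squares), CD64+ macrophages (circles) and CD64- DC (triangles). Clec4d and Clec4e, at the right end, are highest in the Gr-1+ CD11b+ population, and the Clec4a members at the left are highest in macrophages.

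Around Clec7a lies a second group of lectin genes, most of them low in all libraries. Clec12a, an inhibitory receptor of granulocytes and monocytes, was at 22.8 FPKM in the Gr-1+ CD11b+ population, 84.7 in macrophages and 13.3 in DC. Olr1, which encodes the oxidised lipoprotein receptor LOX-1, was at 29.8, 26.3 and 3.81 FPKM. Clec9a, a receptor of cross-presenting dendritic cells, was at 0.866, 1.88 and 2.81 FPKM and exceeded the silent-gene level in DC only. Clec1b was at 1.65, 5.03 and 0.346 FPKM, and Clec1a and Clec12b did not exceed that level in any library. Clec2d and Cd69, further from Clec7a, were at 7.88, 13.3 and 9.91 FPKM and at 63.6, 69.7 and 198.

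Of 41 other C-type lectin genes, 21 reached 10 FPKM in any library, and of these 5 were highest in the Gr-1+ CD11b+ population, 9 in macrophages and 7 in DC. For macrophages minus DC, 6 of the 34 that passed the filter were beyond the size limit upwards and 0 downwards. Of all genes, 2.31% were beyond it upwards and 1.53% downwards, and of the members 9 of 10 were upwards. The median difference of the 34 genes was 0.18, against 3.23 for the members. The lists were not matched in level. Genes that never reach 10 FPKM cannot pass the limit, and the scale understates differences of low genes. The lowest member in macrophages, Clec5a, was at 36.8 FPKM. Cd209c was highest in the Gr-1+ CD11b+ population, at 280 FPKM, against 97.1 in macrophages and 15.2 in DC. Klra17, Colec12 and Olr1 were also highest there. The highest value was in macrophages for Mgl2, Cd302, Klra2, Clec12a, Clec4b1, Cd93, Klrb1b, Clec2d and Cd209f, with Cd302 at 27.4, 152 and 25.9 FPKM. It was in DC for Cd72, Cd209a, Cd69, Cd209d, Clec2i, Clec3b and Selp. Cd209a, a lectin gene of dendritic cells, was at 12.7, 105 and 203 FPKM, and Cd72 was at 11.8, 137 and 311. Cd72 is a co-receptor gene of B cells, and the part of B cell RNA in its values was not tested.

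The signalling partners did not all follow the receptors. Fcer1g, the gamma chain gene, was at 4487 FPKM in the Gr-1+ CD11b+ population, 4597 in macrophages and 670 in DC, and Tyrobp, the DAP12 gene, was at 8167, 5327 and 1062. By the size limit both were higher in the Gr-1+ CD11b+ population and in macrophages than in DC, although with equal sums Tyrobp was at 1.94 for macrophages minus DC, under the limit. Of 15 adaptor and kinase genes, 3 passed it upwards in the Gr-1+ CD11b+ population against DC (Fcer1g, Tyrobp and Fgr), with 0 lower there or in macrophages against DC. Of all genes, 3.65% were higher and 6.28% lower in the Gr-1+ CD11b+ population than in DC, and 1.53% were lower in macrophages than in DC. Fgr, the gene of a Src family kinase, was at 275, 130 and 43.2 FPKM. The kinase gene Syk was at 108, 70.2 and 92.6 FPKM, a narrower range than that of any of the 10 receptors, and Lyn was at 177, 191 and 124.

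Of 13 genes of the CARD9 complex and NF-kB, 0 passed the size limit in any of the 3 comparisons. Of all genes, 1.41% to 6.28% passed it in a given comparison and direction, so a count of 0 in 13 genes is near that share. Card9 was at 21.4 FPKM in the Gr-1+ CD11b+ population, 31.0 in macrophages and 11.0 in DC, and the median difference of the list was 0.07 for macrophages minus DC and -0.62 for the Gr-1+ CD11b+ population minus DC. Rela at 152, 139 and 112 FPKM, Nfkb2 at 131, 107 and 94.4 and Relb at 98.7, 115 and 109 had the highest mean levels. Of 9 inhibitory genes, Dok2 was higher in macrophages than in DC, at 120 against 27.5 FPKM, and Cd37, which B cells also express, was lower, at 68.1 against 536. The difference of Dok2 was 2.09, and it no longer passed with equal sums, at 1.71, or with a pseudocount of 10, at 1.80. Dok1, at 1.74, 11.7 and 11.6 FPKM in the 3 populations, was lower in the Gr-1+ CD11b+ population than in both others, and Dok2, at 22.3 FPKM there, was lower than in macrophages. The Dok1 value lay far below the silent-gene level of that library, and both Dok1 calls were lost with a pseudocount of 10, at -0.88 against DC and -0.89 against macrophages, with a floor of 30 FPKM, and with median-ratio or 75th percentile scaling. The Dok1 call against macrophages was also lost with the silent-gene level subtracted, which leaves under 10 FPKM in both libraries. Dok2 against macrophages was at -1.82 or -1.80 with those 2 scalings and passed no longer. Ptpn6, the gene of the phosphatase SHP-1 that binds the DCIR motif, was at 282, 326 and 336 FPKM, and Dok3 was at 84.3, 58.0 and 101.

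Genes that these receptors and many other stimuli induce were compared as well. By the size limit 8 of 16 such genes were higher in macrophages than DC (median 2.24), where 2.31% of all genes were. In the Gr-1+ CD11b+ population 9 were higher than in DC (median 2.34), where 3.65% of all genes were. In either comparison 0 were lower, where 1.53% and 6.28% of all genes were. Il1b was at 13362 FPKM in the Gr-1+ CD11b+ population, 11637 in macrophages and 1894 in DC. Cxcl2 was at 2110, 975.3 and 107 FPKM, and Ccl4 was at 1698, 1700 and 238. Tnf, Il23a, Ccl3 and Ptgs2 also passed in both comparisons with DC, Il10 passed in macrophages only, and Nfkbiz and Csf3 passed in the Gr-1+ CD11b+ population only. With equal sums Tnf was at 1.96 and Ptgs2 at 1.99 in the Gr-1+ CD11b+ population minus DC, and with a pseudocount of 10 Tnf was at 1.93 and Csf3 at 1.83, all under the limit. Whether the differences of Il10, Nfkbiz and Csf3 from DC differ between the populations was not tested. Il10 and Egr2 were lower in the Gr-1+ CD11b+ population than in macrophages, Egr2 being at 12.6 against 64.3 FPKM, and Egr2 passed no longer with a pseudocount of 10, at -1.72, or with median-ratio or 75th percentile scaling, at -1.71 or -1.69.

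For each member the nearest genes, among 6724 that reached 10 FPKM in any library, were found by Euclidean distance over log2(FPKM + 1) in the 3 libraries. With 3 values per gene this likeness is a coarse description. Clec4e lay nearest to Ier3 (0.84) and Tnfaip2 (0.85), Clec4d to Cxcl3 (0.77) and Csf3r (0.84), and Clec5a to Sh2b2 (0.52) and Bst1 (0.62). Clec4n lay nearest to Plin2 (0.41) and Il1a (0.58), and Clec7a to Cd63 (0.50) and Cd68 (0.51). Clec4a1 lay at 0.13 from C3ar1 and 0.15 from Fcgr1, the gene of the CD64 antigen used in the sort. Clec4a3 was nearest to Ms4a7 (0.64) and Pf4 (0.76), Clec4a2 to Pdlim4 (0.54) and Folr2 (0.55), Mrc1 to Tifab (0.04) and Apol7c (0.22), and Clec10a to Phf11b (0.08) and Tob2 (0.21). The closest members to each other were Clec4a1 and Clec4a2, 0.82 apart, and the pair with the most unlike centred profiles was Clec4d and Clec10a, 5.80 apart.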

How the data were processed

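Per the labels' protocols, total RNA (RNeasy kit) was turned into full-length cDNA by SMART-Seq HT and into libraries by Nextera. For each of the 3 libraries the authors deposited FPKM values by gene symbol. The submitters' processing notes name Cufflinks 2.2.1, TopHat2 2.0.13, Bowtie2 2.2.3, SAMtools 0.1.19 and mm10 without saying what each was used for. Annotation, filters, strandedness and pooling of mice are not given in the sources used here.

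Log2 was taken of the deposited FPKM plus a pseudocount of 1, which understates differences of low genes. Genes at 1 FPKM or more in any library, 17329 of 24346, were compared by the size limit. FPKM divides by the library total, so the 10 highest genes, with 33.5% of the sum in the Gr-1+ CD11b+ population, 22.2% in macrophages and 15.0% in DC, lower the rest. Depth came from FPKM times length of genes with 1 transcript over 800 nt. On 1 kb, 1 fragment was worth 0.443, 0.163 and 0.123 FPKM in the same order, the step that best fitted the low values. At that step 62.8%, 60.2% and 70.0% of them came within 0.2 of a whole number of fragments. A step fixed in advance would give 40% by chance, so the excess is no test of the fitted step. A value of 3 fragments on 1 kb was 1.33, 0.489 and 0.368 FPKM.

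The members and the 14 gene lists beside them were chosen with earlier results of these data known. The text names all members, other lectins at 10 FPKM or more or near the members on chromosome 6, genes of the signalling and target lists that passed the size limit or were among the 3 with the highest mean log2 level, and the 2 nearest genes of each member. Card9, Syk and Lyn, outside these rules, were named after their values were seen. Results of some genes that the rules name are not reported here. GENCODE M21, in which 23310 symbols were found, gave positions and lengths, and RefSeq (GRCm38.p6) gave upstream sequence. Alternatives were pseudocounts of 0.1 and 10, no floor or 30 FPKM, log2 limits of 1 and 3, 3 scalings, and subtraction of the silent-gene level. Python 3.11.15, NumPy 2.4.6, pandas 2.3.3 and matplotlib 3.10.9 were used.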

Additional observations from a re-analysis of the deposited data

How the results depend on the processing

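No paired analysis was possible because each population was 1 library. Relative to the deposited scale, equal sums moved the median difference of all genes by -0.25 for macrophages minus DC and -0.28 for the Gr-1+ CD11b+ population minus DC, and by 0.01 for the Gr-1+ CD11b+ population minus macrophages. Median ratios moved them by 0.12, 0.62 and 0.43, and 75th percentiles by 0.10, 0.61 and 0.44, in the same order. Of 60 alternative counts of members past the size limit, 53 stayed within 1.5 times the reported count. The count lower in the Gr-1+ CD11b+ population than in DC, 1 as reported, was 0 with a pseudocount of 10, a log2 limit of 3, median ratios or 75th percentiles. The count lower in the Gr-1+ CD11b+ population than in macrophages, 5 as reported, was 3 with a pseudocount of 10 or a log2 limit of 3, and the count higher, 1 as reported, was 0 with a log2 limit of 3. Of 180 alternative differences of single members, 168 kept their direction and their side of the size limit, 11 kept their direction and no longer passed, and 1 reversed. That was Clec4a1 in the Gr-1+ CD11b+ population minus DC, -1.14 with the silent-gene level subtracted against 0.42 as reported. The same subtraction moved the shares of the summed FPKM in the Gr-1+ CD11b+ population to 54.6% for Clec4e, 0.127% for Clec4a1, 0.237% for Clec4a2, 1.29% for Clec4a3, 2.01% for Clec5a and 0 for Clec10a and Mrc1. It moved Clec5a and Mrc1 to 1.03% and 1.19% in macrophages, and Clec5a to 0.493% in DC. In the Gr-1+ CD11b+ library, depth and a silent-gene level of 9.67 FPKM limit what can be read for the 4 members under 20 FPKM there.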
